A study of Mus musculus with 8 samples.

Results

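The effect of losing HR6B was compared between the meiotic and the haploid phase of mouse spermatogenesis. For each of 45037 probe sets, the log2 difference between Hr6b knockout and wild type spermatocytes was subtracted from the log2 difference between Hr6b knockout and wild type round spermatids. All 8 arrays of the 8 in the series entered this comparison, 2 for each combination of cell type and genotype, and the probe sets covered 18194 genes that were the single gene annotated to a probe set. Late spermatocytes and round spermatids were isolated from the testes of male Hr6b+/+ and Hr6b-/- mice on an FVB background, at an age of 4 to 5 weeks, by sedimentation followed by a density gradient. The knockout is constitutive, so both cell types of a knockout mouse had developed without the protein, and the number of mice behind an array is not stated. P-values therefore measure the spread between these samples, which may be technical.

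HR6B, encoded by Ube2b, is a ubiquitin-conjugating enzyme, and its X-linked paralog Ube2a encodes the near-identical HR6A. In late spermatocytes the X and Y chromosomes are transcriptionally silenced in the XY body, and many genes of sperm chromatin, acrosome and tail are not yet at their full level. Round spermatids have completed both meiotic divisions, transcribe those genes strongly and retain a partly repressed X chromosome.

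A positive difference below means that the knockout effect was more positive in spermatids than in spermatocytes, and a negative difference the reverse. Calls were made where the limma p, adjusted over all probe sets, was under 0.05. Signal is the deposited value on the linear scale. The difference was called for 2073 probe sets, 4.60% of those tested. It was positive for 658 (1.46%) and negative for 1415 (3.14%). The effect itself was called for 717 probe sets in spermatocytes (1.59%), of which 531 were higher (1.18%) and 186 lower (0.413%) in the knockout, and for 6514 in spermatids (14.5%), of which 2175 were higher (4.83%) and 4339 lower (9.63%). Replicates correlated at 0.995 to 0.997, and a signal of at least 100 was reached by 33.2% to 35.4% of the probe sets of each array. The summed signal of 20 autosomal round spermatid markers separated the cell types, at 215004 to 219826 in wild type spermatids against 9013 to 13390 in wild type spermatocytes, whereas that of 12 late spermatocyte markers lay at 58936 to 59040 and 65895 to 67952. The median of the expressed autosomal probe sets was 0.23 lower on the log2 scale in knockout than in wild type spermatids (8.46 against 8.69), whereas it shifted by 0.02 in spermatocytes. This shift weighs on the balance of directions. With the arrays brought to equal medians of expressed autosomal probe sets, which moved the median difference over all probe sets to 0.27, 3432 probe sets were positive and 642 negative. With cyclic loess normalization 573 were positive and 624 negative. The number of calls also rested on single arrays. Leaving out replicate 1 or 2 lowered it to 228 or 414 for the knockout spermatocytes, to 364 or 1209 for the knockout spermatids, and to 401 or 630 for the wild type spermatids. A fit without 1 array leaves its group with a single sample, which is assumed to vary like the other groups.

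Probe sets were then sorted by how the effects related, and most of the called differences belonged to spermatids alone. An effect in 1 cell type only required a called difference, a called effect in that cell type, and an effect in the other that was not called and whose 95% interval lay within 1 on the log2 scale. By this rule 1722 probe sets (3.82%) responded in spermatids only, 537 upward and 1185 downward, and 174 (0.386%) in spermatocytes only, 131 upward and 43 downward. The rule bounds the other effect and does not show that it was absent. Both effects were called with opposite signs for 14 probe sets (0.0311%). The same effect, called in both with a difference that was not called and had an interval within 1, was found for 187 probe sets (0.415%), 121 upward and 66 downward, and 16 (0.0355%) moved in the same direction by a different amount. A further 70 were called in both without a bounded difference, and 147 had a called difference but met no class, of which 131 were called in neither cell type. A missed call in 1 cell type was a poor guide. Of the 6227 probe sets called in spermatids and not in spermatocytes, 4494 had no called difference, and of the 430 called in spermatocytes and not in spermatids, 251 had none. The effects in the 2 cell types, which share no array, correlated at r = 0.156 over all probe sets and at r = 0.33 over the 15814 with a mean signal of 100 or more. Both are descriptions across probe sets, which do not vary independently.

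**Figure D1:**
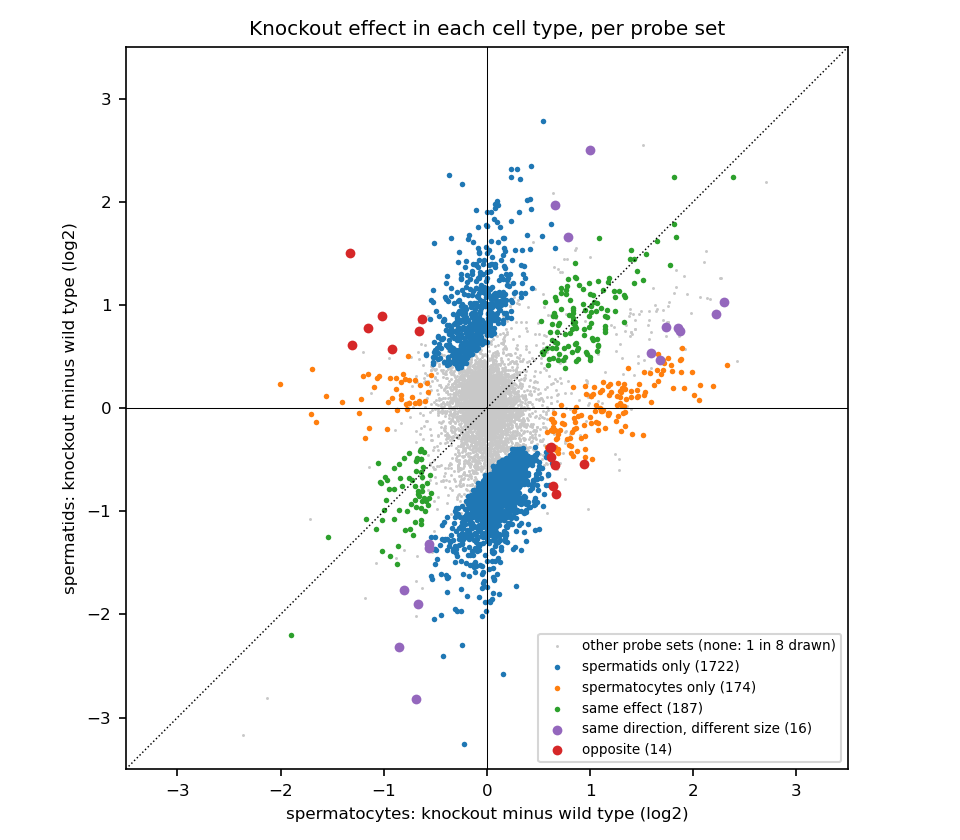
Knockout minus wild type (log2) in spermatocytes on the horizontal axis and in spermatids on the vertical axis, 1 point per probe set, coloured by class; the dotted line marks equal effects. The 1722 probe sets that responded in spermatids only form the vertical band, the 174 in spermatocytes only the horizontal one, the 187 with the same effect lie along the dotted line and the 14 opposite ones at the upper left and lower right.

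Opposite effects were found for 11 named genes. Rbmy1a1, a Y-linked gene of a germ cell RNA-binding protein, had the largest difference among them. Its signal was 77.7 and 78.8 in wild type and 29.4 and 33.2 in knockout spermatocytes, and 68.2 and 77.7 in wild type and 208 and 204 in knockout spermatids. It thus fell below both wild type arrays in spermatocytes and rose above both in spermatids, with a difference of 2.83 (standard error 0.17, adjusted p = 0.000334 from limma). Rbmy1a1 is named from the gene list of the study and belongs to a multicopy family, so that its copies cannot be told apart by this probe set.

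Atp6v0b, a subunit of the vacuolar proton pump, went the same way. Its signal was 737 and 791 in wild type and 298 and 398 in knockout spermatocytes, and 258 and 279 in wild type and 472 and 444 in knockout spermatids. The wild type pattern, high in spermatocytes and low in spermatids, was reversed in the knockout, and the difference was 1.92 (standard error 0.21, adjusted p = 0.00432 from limma). The difference was also called in the same direction for the gene's 2 other probe sets, at 0.72 to 1.43. Neither of them was in the opposite class, so that the reversal rests on 1 probe set. Also lower in knockout spermatocytes and higher in knockout spermatids were 4930433N12Rik, a gene of unknown function (effects -1.02 and 0.90), Gatad2a, a subunit of the NuRD chromatin-remodelling complex (-0.92 and 0.57), and the X-linked Trap1a, which encodes a tumour rejection antigen (-0.66 and 0.75). In spermatids Gatad2a lay among the lowest signals of the arrays, at 14.6 and 15.2 in wild type and 25.7 and 19 in the knockout, so that its direction there is weakly supported. The other 4 probe sets of Gatad2a had differences between -0.33 and 0.02 and none was called. Trap1a was at low signal in spermatocytes, at 24.6 and 27.3 in wild type and 15.9 and 17 in the knockout. Its fall there is less certain.

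The remaining named genes rose in knockout spermatocytes and fell in knockout spermatids. Plcb4, a phospholipase C gene, had a signal of 139.8 and 140.5 in wild type and 212 and 234 in knockout spermatocytes, against 346 and 366 in wild type and 202 and 198 in knockout spermatids. The rise from spermatocytes to spermatids seen in wild type was absent in the knockout, whose 4 arrays lay between 198 and 234, and the difference was -1.50 (standard error 0.16, adjusted p = 0.00398 from limma). The difference was called the same way for 1 of its 4 other probe sets, within a range of -1.55 to 0.11, and none of the 4 was in the opposite class. Kcnu1, the sperm potassium channel SLO3, had 126 and 109 against 184 and 177 in spermatocytes and 3171 and 3115 against 2324 and 2196 in spermatids, wild type first. Its arrays did not overlap between genotypes in either cell type. Stpg1 (0.66 and -0.56), a sperm-tail protein gene, Erich3 (0.61 and -0.38), the BEACH-domain gene Nbeal1 (0.62 and -0.38) and the X-linked Phf6 (0.64 and -0.76), which encodes a PHD finger protein, had effects of the same signs. Stpg1, Erich3, Nbeal1 and Phf6 were each under a signal of 100 in 1 cell type. In spermatocytes Stpg1 had 42.9 and 49.7 in wild type against 75.3 and 70.4 in the knockout. Erich3 had 42.3 and 42.5 against 65.5 and 63.8 there. Nbeal1 had 27.2 and 28.2 in wild type against 20.5 and 22.3 in knockout spermatids, and Phf6 19.2 and 20.1 against 29.5 and 31.9 in spermatocytes, so that these effects are less certain. The 2 other probe sets of Phf6 had differences of 0.10 and 0.29 and were not called. Those of Erich3 had -1.3 and 0.41, those of Nbeal1 lay between -1.3 and -0.44, and that of Stpg1 had -0.88, again without a call. The other 3 opposite probe sets were 1 of Gria4, a glutamate receptor subunit, below a signal of 100 in each group, and 2 annotated to several genes each. Of the 11 named genes, 6 kept a called difference in each of the 8 fits that left out 1 array, namely Rbmy1a1, Atp6v0b, 4930433N12Rik, Plcb4, Trap1a and Phf6. Opposite probe sets numbered 3 in the fit lacking replicate 1 of the knockout spermatocytes and 43 in that lacking replicate 1 of the wild type ones.

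**Figure D2:**
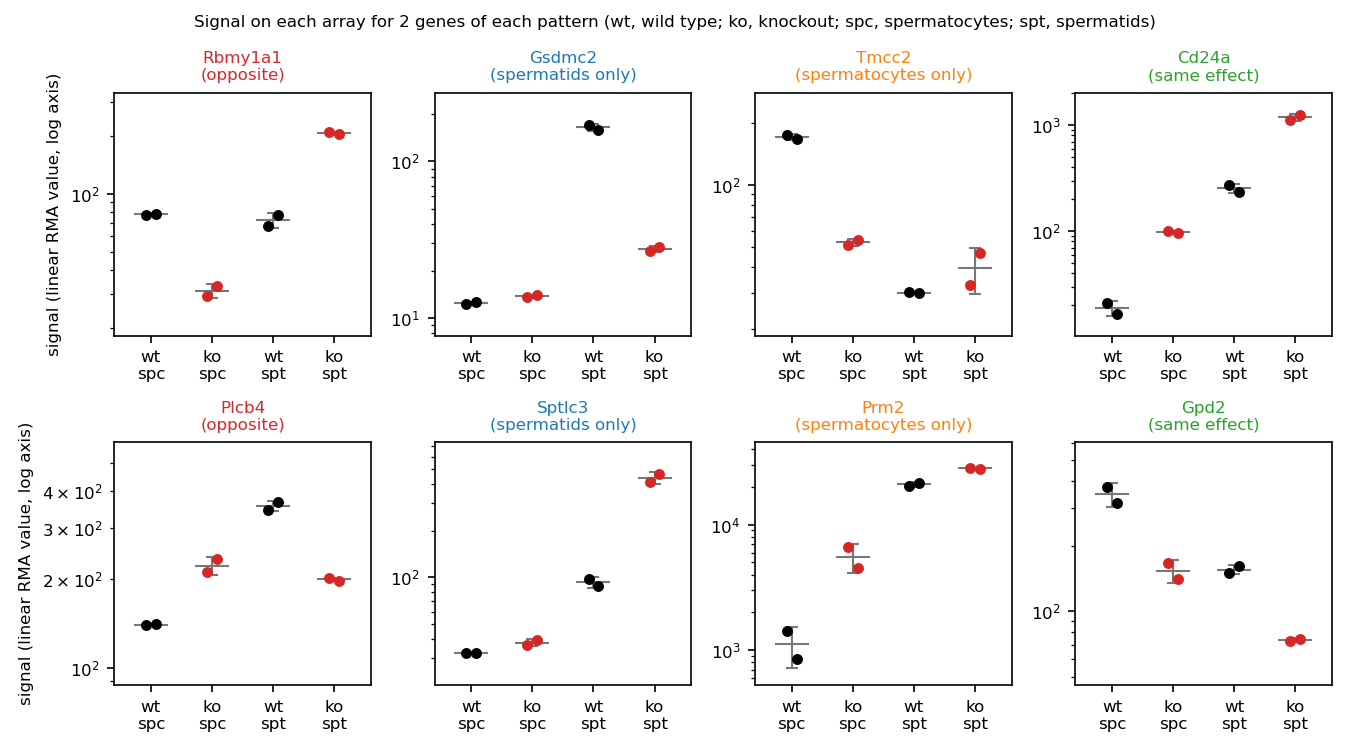
Signal on each array (linear value on a log axis, 2 points per group) with the group mean and SD, for 2 genes of each pattern; wild type in black and knockout in red. In the Rbmy1a1 and Plcb4 panels the knockout points lie on opposite sides of wild type in the 2 cell types, in the Gsdmc2 and Sptlc3 panels they leave wild type clearly in spermatids, in the Tmcc2 and Prm2 panels in spermatocytes, and in the Cd24a and Gpd2 panels in both.

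Genes that responded in spermatids only and rose were mostly low in the other 3 groups. Over the 537 such probe sets, spermatocytes had a median signal of 47.9 in wild type and 44.3 in the knockout, and spermatids one of 67.2 and 135. Sptlc3, which encodes a subunit of serine palmitoyltransferase in sphingolipid synthesis, had a signal of 32.2 and 32.4 in wild type and 36.3 and 39.3 in knockout spermatocytes, and 97.8 and 87.5 in wild type and 410.3 and 464 in knockout spermatids. Both knockout spermatid arrays lay above all others, and the difference was 2.01 (standard error 0.17, adjusted p = 0.00272 from limma). Pcdh17, a cell adhesion gene of the protocadherin family, had the largest positive difference of this class among the named genes, 2.63 (standard error 0.26, adjusted p = 0.00343 from limma). Its signal was 18.6 and 16.5 against 16.2 and 11.5 in spermatocytes and 34.2 and 29.6 against 136 and 171 in spermatids, wild type first. The neuronal pentraxin Nptx2 rose from 16.2 and 20.7 to 109 and 144 in spermatids, the sialyltransferase St3gal6 from 103 and 106 to 512 and 554, and the growth factor Bmp7 from 21.1 and 29.4 to 126 and 122. In spermatocytes none of these 3 genes exceeded 24.3 on any array. At so low a signal a fall there could hardly have shown, which also holds for Pcdh17. The further probe sets of these genes were not called. That of Sptlc3 had a difference of -0.24, that of Nptx2 0.22 and that of Pcdh17 0.16, while those of St3gal6 lay between -0.45 and 0.50 and those of Bmp7 between -0.07 and 0.52.

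Vgll2, which encodes a cofactor of TEAD transcription factors, had a signal of 33.5 and 30.9 in wild type and 36.4 and 39.2 in knockout spermatocytes. In spermatids it was 46.2 and 46.7 in wild type and 186 and 287 in the knockout, a difference of 2.09 (standard error 0.25, adjusted p = 0.00623 from limma). Its promoter, from RefSeq (GRCm38.p6, chr10:52022252-52022551, plus strand, 250 bases before to 50 after the start), is shown with CG dinucleotides in capitals, as an example of a gene that rose in spermatids only.

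Vgll2: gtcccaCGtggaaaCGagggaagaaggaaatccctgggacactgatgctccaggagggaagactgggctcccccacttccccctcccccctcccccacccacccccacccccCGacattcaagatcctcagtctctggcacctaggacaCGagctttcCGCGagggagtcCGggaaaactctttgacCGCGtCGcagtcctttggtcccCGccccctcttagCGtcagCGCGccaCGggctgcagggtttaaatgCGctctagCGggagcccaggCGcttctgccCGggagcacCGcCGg

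Genes that responded in spermatids only and fell had similar median signals in both cell types of the wild type, although single genes differed. Over the 1185 probe sets spermatocytes had a median signal of 333 in wild type and 359 in the knockout, and spermatids one of 361 and 197. Gsdmc2, a member of the pore-forming gasdermin family with closely related copies, had a signal of 171 and 159.7 in wild type spermatids and 26.8 and 28.4 in knockout spermatids. In spermatocytes it lay among the lowest signals of the arrays, at 12.4 and 12.6 in wild type and 13.7 and 14 in the knockout. A fall could hardly have shown at that level, so the missing call in spermatocytes says little for this gene. Wild type spermatids thus stood above the other 3 groups, with a difference of -2.73 (standard error 0.15, adjusted p = 0.000334 from limma). Gmds, which makes GDP-fucose, had 82.8 and 95.9 against 62.8 and 61.7 in spermatocytes and 329 and 350.3 against 80.2 and 84.0 in spermatids. P4ha2, a collagen prolyl hydroxylase, had 32.5 and 38.8 against 26.4 and 25.7, and 307 and 348 against 87.5 and 75.8. Knockout spermatids were close to wild type spermatocytes for Gmds and above them for P4ha2, and in both genes well below wild type spermatids.

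Kansl1l and Tmtc2 instead started high in spermatocytes. Kansl1l, related to a subunit of a histone acetyltransferase complex, had 491 and 625 against 509.6 and 562 in spermatocytes and 293 and 248 against 58.2 and 76.3 in spermatids, wild type first, with a difference of -1.97 (standard error 0.24, adjusted p = 0.0063 from limma). One of its 5 other probe sets was in the same class. Tmtc2, an enzyme gene of protein O-mannosylation, had 245 and 212 against 207 and 167, and 147 and 163 against 41.5 and 37.5. Its other probe set had a difference of 0.44 and was not called, and that of Gmds had -0.38. Parp8, of the ADP-ribosyltransferase family, had 94.8 and 98.5 against 72.3 and 71.2 in spermatocytes and 253 and 266 against 58.7 and 40.7 in spermatids, a difference of -1.98 (standard error 0.23, adjusted p = 0.00498 from limma). Its promoter (GRCm38.p6, chr13:117025482-117025781, minus strand) stands for the genes that fell in spermatids only, again with CG in capitals.

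Parp8: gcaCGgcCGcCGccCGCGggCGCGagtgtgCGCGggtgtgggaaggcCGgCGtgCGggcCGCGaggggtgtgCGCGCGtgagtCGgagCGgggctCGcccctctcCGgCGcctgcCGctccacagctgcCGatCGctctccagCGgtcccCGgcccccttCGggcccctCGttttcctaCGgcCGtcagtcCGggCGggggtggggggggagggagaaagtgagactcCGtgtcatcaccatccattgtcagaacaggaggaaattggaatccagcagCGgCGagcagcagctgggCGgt

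The Parp8 window holds 37 CG dinucleotides and that of Vgll2 21. Over the genes of these classes with a promoter in the table, the median was 21 for those that fell (754 of 928 genes, 81.2%) and 17 for those that rose (347 of 430, 80.7%), beside 21 for all genes with a mean signal of 100 or more (7608 of 9295, 81.9%). The genes that fell in spermatids only thus did not stand apart from expressed genes in this count. Of the named genes that responded in spermatids only, 16 of 33 kept a called difference in each of the 8 fits that left out 1 array, among them the 12 strongest given here. The class held 198 probe sets without replicate 1 of the knockout spermatocytes and 327 without replicate 1 of the knockout spermatids.

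Genes that responded in spermatocytes only and rose mostly had far more signal in spermatids. Over the 131 probe sets, spermatocytes had a median signal of 98.7 in wild type and 229.6 in the knockout, and spermatids one of 3844 and 3613. At least 8-fold more signal in wild type spermatids than in wild type spermatocytes was found for 102 of the 131, beside 1480 of all 45037 probe sets, a ratio that shares the wild type arrays with both effects. Prm2, a protamine that packages sperm DNA, had a signal of 1413 and 844 in wild type and 6593 and 4538 in knockout spermatocytes, and 20315 and 21659 in wild type and 28302 and 27900 in knockout spermatids. The genotypes did not overlap in either cell type, but on the log2 scale the effect was 2.32 in spermatocytes and 0.42 in spermatids, the latter not called (adjusted p = 0.275 from limma), and the difference was -1.90 (standard error 0.33, adjusted p = 0.0168 from limma). Tnp1, a transition protein, had 1813 and 1053 against 7475 and 5363 in spermatocytes and 27205 and 26421 against 30827 and 31225 in spermatids. Prm1, the other protamine, had effects of 1.91 and 0.20, the testis HMG-box protein Hmgb4 1.99 and 0.35, Iqcf3 1.89 and 0.35, and the X-linked Akap4, the main protein of the fibrous sheath of the tail, 1.88 and 0.47. The 2 other probe sets of Prm1 were in the same class.

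Values that move with this class stand beside it. The 20 autosomal round spermatid markers summed to a signal of 9013 to 13390 on the wild type and 28167 to 37832 on the knockout spermatocyte arrays, and to 256297 to 260599 on those of knockout spermatids. Of the 20, 12 rose and none fell in knockout spermatocytes, beside 403 of all 18194 genes that rose and 94 that fell there. The markers include members of the class itself, namely Prm1, Prm2, Tnp1, Txndc8 and Hils1, so their sum is not independent of it. In wild type spermatids 33 of the 131 probe sets had a log2 value of 13 or more, beside 461 of all 45037 and close to the highest values of these arrays. Whether spermatids among the isolated spermatocytes or the upper limit of the array had a part in the class was not tested, and in isolated fractions more cells of a type and more RNA per cell cannot be told apart. None of the 6 genes above kept a called difference in all 8 fits that left out 1 array. The class held 12 probe sets without replicate 1 of the knockout spermatocytes and 463 without replicate 1 of the wild type spermatocytes.

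The promoter of Prm2 (GRCm38.p6, chr16:10792056-10792355, minus strand) holds 3 CG dinucleotides. It is shown because Prm2 rose most in knockout spermatocytes among the named genes of this class. A summary over the class is void, since the table held a promoter for 80 of its 104 genes (76.9%), below the share of 80% set for such checks.

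Prm2: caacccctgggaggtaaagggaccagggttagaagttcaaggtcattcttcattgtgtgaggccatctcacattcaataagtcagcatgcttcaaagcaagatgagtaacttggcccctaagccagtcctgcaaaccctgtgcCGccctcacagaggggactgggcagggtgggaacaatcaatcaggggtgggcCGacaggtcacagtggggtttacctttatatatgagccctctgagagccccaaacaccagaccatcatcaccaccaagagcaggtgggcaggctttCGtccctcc

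The 43 probe sets that fell in spermatocytes only had low median signals in spermatids of both genotypes, though single genes such as Fmr1 did not. The medians were 94.3 in wild type and 42.4 in knockout spermatocytes, and 29.8 and 30.8 in spermatids. Tmcc2, a transmembrane protein gene, had a signal of 174 and 167 in wild type and 51.3 and 54.1 in knockout spermatocytes, and 30.1 and 29.8 against 32.6 and 46.7 in spermatids. The wild type spermatocytes stood above the other 3 groups, and the difference was 2.07 (standard error 0.22, adjusted p = 0.00434 from limma). The other probe set of Tmcc2 was in the same class, with a difference of 2.23, and of the 17 named genes that responded in spermatocytes only Tmcc2 was the 1 that kept a called difference in all 8 fits without 1 array. Mnd1, which acts in strand exchange during meiotic recombination, had 112 and 133 against 49.1 and 62.2 in spermatocytes and 30.2 and 26.6 against 24.2 and 25.5 in spermatids. The homeobox gene Hhex had effects of -1.20 and 0.31, Zfyve9, an adaptor of TGF-beta signalling, -1.10 and 0.20, and Gnao1, a G protein subunit, -0.97 and -0.20. Fmr1, the X-linked gene of the RNA-binding protein FMRP, had 89.2 and 106 against 47.1 and 39.1 in spermatocytes and 228 and 212 against 161 and 201 in spermatids, and its 2 other probe sets had differences of 0.24 and 0.30 and were not called.

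Hhex is shown as the gene with the next largest fall after Tmcc2 among the named genes of this class, with 37 CG dinucleotides in its promoter, above the median of 19 over the 25 of 29 such genes with a promoter in the table (GRCm38.p6, chr19:37434591-37434890, plus strand).

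Hhex: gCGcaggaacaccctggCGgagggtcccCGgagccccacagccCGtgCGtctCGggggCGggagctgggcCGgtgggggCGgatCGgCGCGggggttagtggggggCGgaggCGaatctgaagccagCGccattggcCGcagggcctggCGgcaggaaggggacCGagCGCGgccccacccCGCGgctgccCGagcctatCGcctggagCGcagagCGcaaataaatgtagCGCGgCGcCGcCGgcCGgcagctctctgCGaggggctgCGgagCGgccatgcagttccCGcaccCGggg

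The genes with the same effect in both cell types included the deleted gene, although by a single probe set. On its probe set with the highest signal, Ube2b had 2855 and 3349 in wild type and 833 and 824 in knockout spermatocytes, and 4600 and 4612 in wild type and 951 and 1061 in knockout spermatids. The effects were -1.90 and -2.20, and their difference of -0.30 had a 95% interval from -0.68 to 0.09 (adjusted p = 0.352 from limma). Its 3 other probe sets had differences between -0.91 and -0.59, none of them called, and none of them met the rule for this class. Ube2a, on the X chromosome, had 65.6 and 50.8 against 75.8 and 73.4 there and 2218 and 2330 against 2403 and 2383 in spermatids. Neither effect was called, and the difference was -0.30 with an interval from -0.72 to 0.13. The other probe set of Ube2a had a difference of the other sign, 0.47, which was not called.

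Across the 187 probe sets the differences ranged from -0.64 to 0.56, with 179 of them within 0.5 and a median half-width of the 95% interval of 0.42, so that smaller differences could pass uncalled. Cd24a, a membrane-anchored glycoprotein, rose most, from 21.2 and 16.6 to 99.5 and 96.2 in spermatocytes and from 269.8 and 236 to 1125 and 1257 in spermatids. Its effects of 2.38 and 2.24 differed by -0.14 (95% interval -0.60 to 0.31, adjusted p = 0.73 from limma), although the level itself was far higher in spermatids. Misp3 had effects of 1.83 and 1.66, Dydc2 1.54 and 1.49, Agpat2, an enzyme of phosphatidic acid synthesis, 1.40 and 1.53, Lrrc57 1.39 and 1.45, and the testis fascin Fscn3, an actin-bundling protein, 1.45 and 1.32. Among all 121 probe sets that rose in both, 76 had at least 8-fold more signal in wild type spermatids than spermatocytes, beside 1480 of all 45037. This ratio shares the wild type arrays with both effects. The summed round spermatid markers given above moved with them in spermatocytes, and their part was not tested.

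Of the 66 probe sets that fell in both, 0 had at least 8-fold more signal in wild type spermatids, and 5 had at least 8-fold more in wild type spermatocytes. Over all 45037 probe sets these counts were 1480 and 980, so that 0 of 66 is near the general share. Gpd2, the mitochondrial glycerol-3-phosphate dehydrogenase, had 378 and 317 against 167 and 141 in spermatocytes and 151 and 162 against 73.1 and 74.9 in spermatids, and its effects of -1.18 and -1.08 differed by 0.10 (95% interval -0.32 to 0.52). The diacylglycerol kinase Dgkh had effects of -1.54 and -1.25, Cdca7l, a MYC-interacting nuclear protein, -1.07 and -1.18, Ttc22 -1.01 and -1.09, and the matrix protein periostin, Postn, -0.94 and -1.43. Postn met the rule although its difference of -0.5 had a 95% interval below 0, from -0.91 to -0.08 (adjusted p = 0.154 from limma). Under cyclic loess normalization 159 of the 187 stayed in this class, 85% of them, beside 851 of the 1722 that responded in spermatids only (49.4%) and 70 of the 174 in spermatocytes only (40.2%). Without replicate 1 of the knockout spermatocytes 39 probe sets were in it, and 17 with each cell type fitted alone.

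Same direction with a different size was found for 16 probe sets. Neo1, a receptor for netrins and repulsive guidance molecules, had 386 and 363 against 229 and 235 in spermatocytes and 205 and 175 against 25.3 and 28.3 in spermatids. It fell in both, and by 2.13 more on the log2 scale in spermatids (standard error 0.18, adjusted p = 0.00272 from limma). Lrp11, a low-density lipoprotein receptor-related gene, fell likewise (-0.85 and -2.31). Fcmr, the IgM receptor gene (1.00 and 2.50), the cell adhesion gene Dscaml1 (0.66 and 1.97) and Rhou (0.78 and 1.65) rose more in spermatids. Cabs1, a calcium-binding protein of spermatids (2.30 and 1.03), and the X-linked zinc finger gene Zcchc13 (2.22 and 0.91) rose more in spermatocytes. Of these 7, Dscaml1, Neo1 and Lrp11 kept a called difference in all 8 fits without 1 array.

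Gene lists were read in the same way. In each list a gene counted once, by its probe set with the highest mean, and 385 of all 18194 genes were positive and 839 negative on this basis. Among 13 haploid chromatin proteins, none was positive and 6 were negative (Prm1, Prm2, Prm3, Tnp1, Tnp2 and Hils1), with a median effect of 1.83 in spermatocytes and 0.24 in spermatids. Of the 20 autosomal round spermatid markers 8 were negative (median difference -1.05), and of 27 genes of late spermiogenesis 6 were (-0.74), in both cases none positive. Several genes stand in more than 1 of these lists. Of 25 acrosome and sperm-egg binding genes 5 were negative, with a median difference of -0.59. Spam1, the sperm hyaluronidase, had effects of 1.28 and -0.60, the latter not called, its relative Hyal5 1.19 and 0.24, Zp3r 0.91 and -0.29, and Gopc and Dpy19l2, both needed to form the acrosome, 0.24 and -0.64, and 0.29 and -0.40. Of 27 genes of the fibrous sheath and outer dense fibres 4 were negative, Akap4, Oaz3, Odf1 and Spag6, with a median difference of -0.49. With cyclic loess 3 chromatin proteins, 3 round spermatid markers, 2 late spermiogenesis genes and 1 gene of the fibrous sheath list were negative, and with equal medians 4, 5, 4 and 3. The 5 medians stayed negative under both, at -0.87 and -0.86 for the chromatin proteins and -0.33 and -0.34 for the acrosome genes, where 1 gene was negative under either.

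Genes of the meiotic divisions and the cell cycle differed mostly by a fall in spermatids. Of 42, 9 were negative and 1 positive, 14 fell in spermatids and 0 in spermatocytes by limma (2 were at an unadjusted p under 0.05 there in either direction), beside 2343 of all 18194 genes and 2003 of the 9295 with a mean signal of 100 or more that fell in spermatids, with a median effect of 0.01 in spermatocytes and -0.31 in spermatids, a direction kept under cyclic loess and equal medians (differences of -0.37, -0.18 and -0.11, with 9, 3 and 4 negative). Bub1b, of the spindle checkpoint, had 3404 and 3152 against 3203 and 3190 in spermatocytes and 1912 and 1828 against 918 and 949 in spermatids. Cdc6, which licenses replication origins, had effects of 0.21 and -0.87, the mitotic kinesin Kif11 0.40 and -1.12, the APC activator Cdc20 -0.05 and -0.94, and separase, Espl1, -0.10 and -0.92. The exception was Cdk4, a G1 kinase, with -0.38 and 1.04. Among 23 genes of the synaptonemal complex and recombination Mnd1 alone was called.

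The HR6B partners and RNA processing lists depended on the scaling. Among the 9295 genes with a mean signal of 100 or more, 158 were positive and 706 negative, with a median difference of -0.22. The splicing genes below did not stand apart from these expressed genes, and the HR6B partners were few. Of 15 HR6B-related ubiquitylation genes 2 were negative, the ligases Ube3a (0.36 and -0.52) and Ubr2 (0.08 and -0.78), and neither stayed called with cyclic loess or equal medians. The 3 other probe sets of Ubr2 had differences of the other sign, between 0.29 and 0.6, and none was called. Those of Ube3a lay between -0.72 and -0.01, and 1 of the 5 was called the same way. Of 42 splicing genes 2 were negative, Prpf8 (-0.06 and -0.87) and Prpf38a (-0.01 and -0.77), and the median difference of -0.18 became 0.09 and 0.08 under those scalings. Of 37 genes of the DNA damage response and apoptosis, the death receptor Tnfrsf10b (-0.01 and 0.99) and the initiator caspase Casp9 (-0.31 and 0.50) were positive, while the repair genes Atm, Mre11a, Rad50, Brca2 and Parp1 were negative. The 5 repair genes were no longer called under either scaling. Among 31 heat shock proteins and chaperones, the mitochondrial pair Hspd1 (-0.52 and 1.02) and Hspe1 (-0.06 and 0.99) was positive and the factor Hsf2 (0.52 and -0.32) negative. Hspd1 had 247 and 262 in wild type against 490.1 and 546 in knockout spermatids, without overlap.

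**Figure D3:**
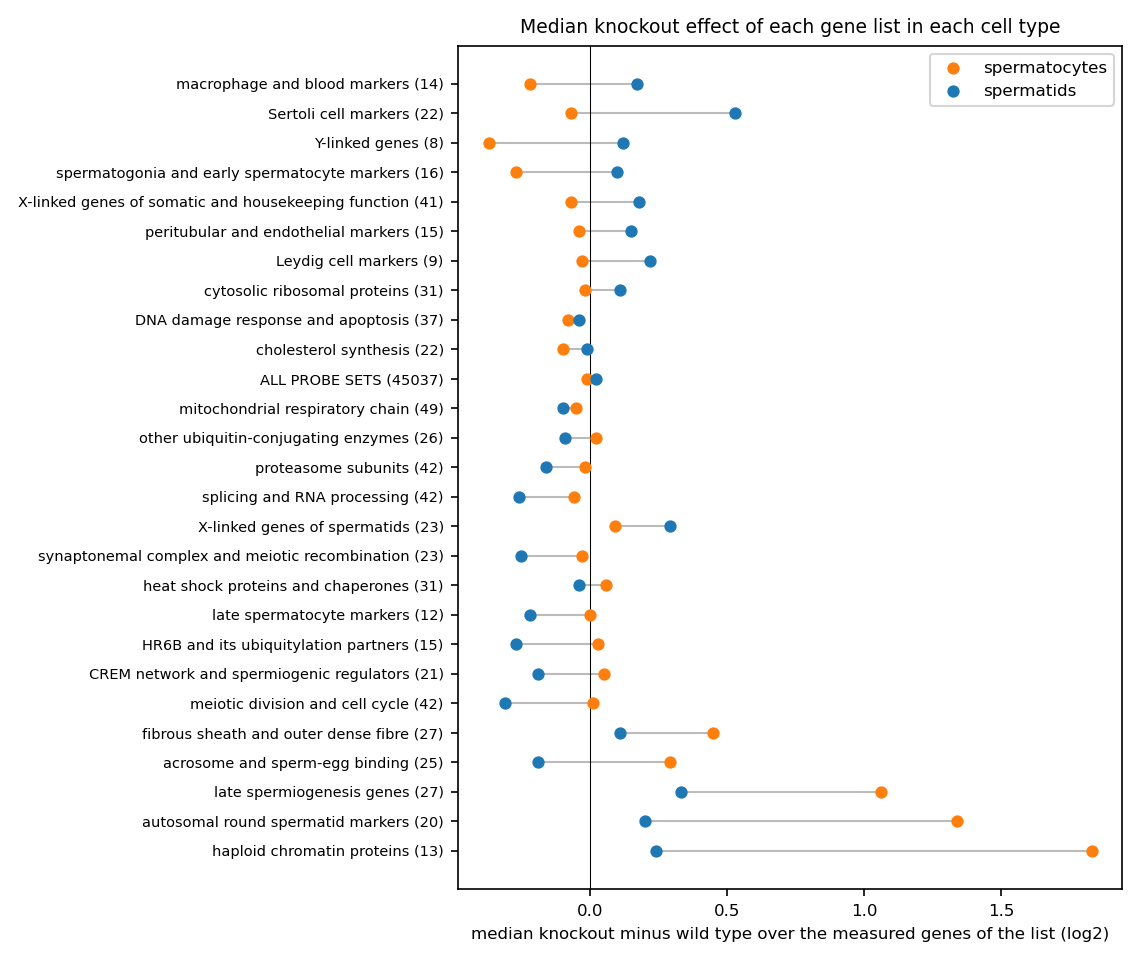
Median knockout minus wild type (log2) over the measured genes of each list, in spermatocytes (orange) and spermatids (blue), ordered by the median difference, with the number of measured genes or probe sets in parentheses. The haploid chromatin proteins lie at 1.83 in spermatocytes and 0.24 in spermatids, and the Sertoli cell markers at -0.07 and 0.53.

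Some markers of other cells rose in knockout spermatids. Of 22 Sertoli cell markers 7 rose and 1 fell in spermatids and 0 were called in spermatocytes by limma (1 at an unadjusted p under 0.05), beside 1262 of all 18194 genes that rose and 2343 that fell in spermatids. The median difference was 0.55, and 0.61 and 0.81 with cyclic loess and equal medians. The difference was called for 5, of which 4 were positive, Aard (-0.24 and 2.17), Defb19 (0.04 and 1.90), Cst12 (0.09 and 1.80) and Gata1 (-0.11 and 0.79), and Tjp1 was negative (0.13 and -0.61). Defb19, a defensin gene, had a signal of 717 to 815 over the 4 spermatocyte arrays without separation by genotype, and 26.7 and 31.7 in wild type against 108 and 109.8 in knockout spermatids. The summed signal of the list was 1931 to 1975 in wild type and 2369 to 2384 in knockout spermatids, beside 9240 to 11871 and 9458 to 11839 in the spermatocytes. Of 14 macrophage and blood markers C1qb (0.00 and 1.32) and Adgre1 (-0.25 and 0.61) were positive, and the sum went from 900.1 to 943 in wild type to 1178 to 1208 in knockout spermatids and from 734 to 757 to 571 to 591 in spermatocytes. Of 16 markers of spermatogonia and early spermatocytes Sohlh1 (-0.41 and 1.08), Uchl1 (-0.28 and 1.41) and Sall4 (-0.54 and 0.37) were positive. Sall4 met no class, since neither of its effects was called. The part of such cells in the spermatid-only rises, which include the other positive markers named here, was not tested.

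The X chromosome departed from the autosomes in the balance of directions. Of 1127 X-linked probe sets, 40 were positive and 12 negative (3.55% and 1.06%), so that 76.9% of the called ones were positive. On the autosomes 525 of 33588 were positive and 1275 negative (1.56% and 3.8%), and 29.2% of the called ones were positive. Among single autosomes the positive share of called probe sets reached at most 45.9%, on chromosome 7. With cyclic loess the counts were 32 and 6 on the X and 466 and 547 on the autosomes, and with equal medians 172 and 9, and 2594 and 574, so that positive calls took a larger share on the X under each. Of the X-linked positive calls 8 were counted in the fit lacking replicate 1 of the knockout spermatocytes and 13 in that lacking replicate 1 of the knockout spermatids.

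X-linked genes were almost missing from the spermatid-only decreases. They made up 2 of 1079 such probe sets with a known chromosome (0.185%), beside 31 of 472 spermatid-only increases (6.57%) and 3.24% of all. The 3.24% covers probe sets of any signal. A group mean of 100 was reached by 1083 of the 1185 decreases and by 19418 of all 45037 probe sets. The part of low X-linked signal was not tested. Of the 41 X-linked genes of somatic and housekeeping function 5 were positive and none negative, Prps2, Med12, Huwe1, Pgk1 and Fmr1, and the median difference of 0.23 was 0.16 with cyclic loess and 0.48 with equal medians. Huwe1 (-0.83 and 0.09) and Fmr1 (-1.18 and -0.29) were positive by a fall in spermatocytes only, not by a rise in spermatids. Prps2, of nucleotide synthesis, had 36.3 and 42.9 against 35.7 and 36.0 in spermatocytes and 51.9 and 50.4 against 118 and 153 in spermatids, a difference of 1.53 (standard error 0.21, adjusted p = 0.00764 from limma). Med12, of the Mediator complex, had 50.5 and 50.6 against 32.0 and 39.3, and 289 and 353 against 482 and 516. Prps2 and Med12 both lay above wild type in knockout spermatids only. The 2 other probe sets of Prps2 had differences of -0.11 and 0.14 and were not called. Of 23 X-linked genes of spermatids 3 were negative, Tsga8 (1.33 and -0.04), Zcchc13 and Akap4, and Flicr (0.09 and 1.01), matched to the list only through an older name, was positive. Their median difference was -0.19 although the median effect was higher in spermatids (0.29 against 0.09), and it changed sign with equal medians (0.06). Among 8 Y-linked genes Rbmy1a1 and Uba1y, a copy of the ubiquitin-activating enzyme gene (-0.79 and 0.04), were positive.

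**Figure D4:**
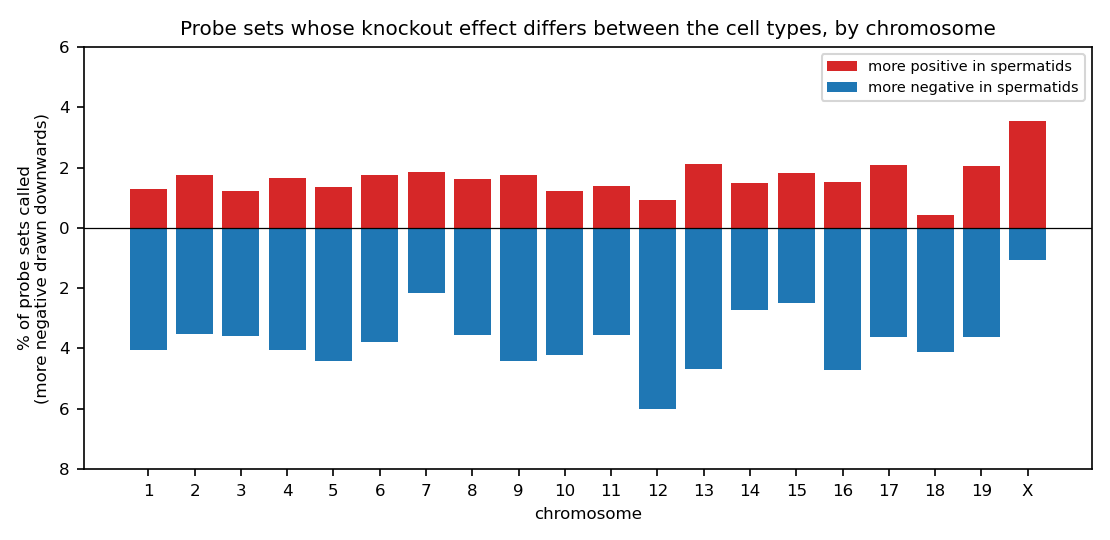
Share of the probe sets of each chromosome (%) with a called difference in knockout effect, more positive in spermatids drawn upwards and more negative drawn downwards. The X chromosome has 3.55% upwards and 1.06% downwards, while the autosomes reach at most 2.12% upwards and at least 2.17% downwards.

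Negative differences grew more frequent with gene length. The 34741 probe sets with a gene length were put in 5 bins of equal size, from short to long. At median lengths of 4.42, 13.6, 26.9, 54.3 and 150.3 kb, 2.36%, 3.14%, 3.91%, 4.48% and 4.63% were negative. Median gene length was 39.7 kb for the spermatid-only decreases and 20.5 kb for the spermatid-only increases. Within 5 bins of signal in wild type spermatids, the share was higher for the longest than for the shortest genes in the 3 upper ones, while few probe sets were negative in the 2 lowest and they were not ordered by length. In the highest of them the share went from 6.38% in the shortest to 12.8% in the longest genes, and in the next from 3.97% to 10.7%. The order of the shortest and the longest bin was the same with cyclic loess (1.01% and 2.62%), with equal medians (1.02% and 2.33%), with a filter on signal (8.77% and 15.9%), and with 1 probe set per gene (2.7% and 6.37%). Genes of different length also differ in the number and placement of probe sets, whose part was not tested.

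**Figure D5:**
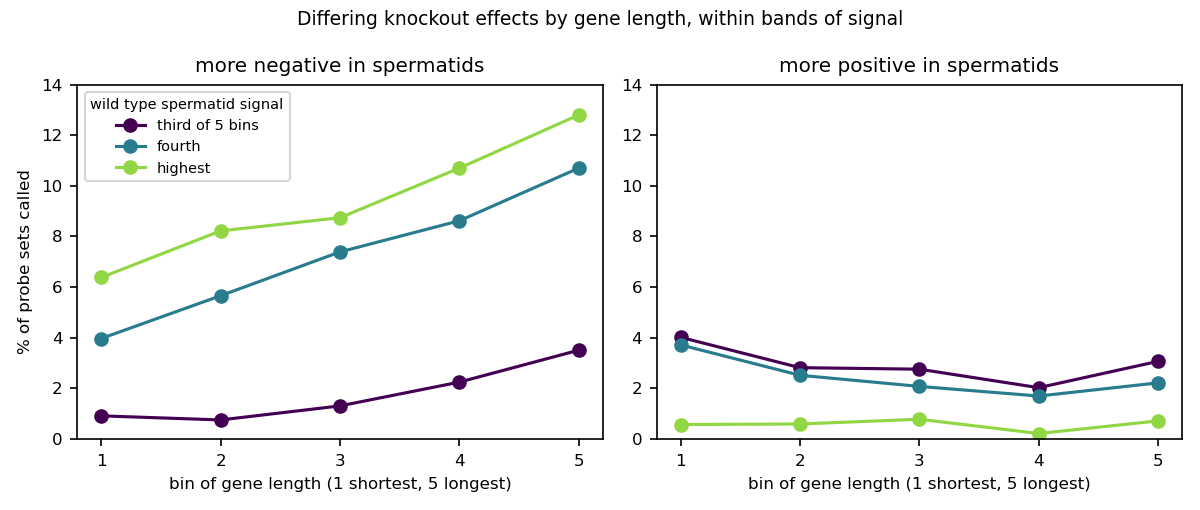
Share of probe sets (%) with a called difference that is more negative (left) or more positive (right) in spermatids, by bin of gene length (1 shortest, 5 longest), in the 3 upper of 5 bins of wild type spermatid signal. In the highest bin of signal the negative share goes from 6.38% to 12.8%.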

How the data were processed

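Gene expression was measured on 8 Affymetrix mouse arrays. Per the labels and the methods, the authors background-corrected, normalized and summarized the probes with RMA and deposited log2 values per probe set, which were used unchanged. No scan date was given in the sources used here. The paper's captions speak of batches of the isolated cells, without linking them to replicate numbers.

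A linear model with 4 group means was fitted to all 8 arrays with limma 3.58.1 in R 4.3.3 (4 residual and 5.85 prior degrees of freedom), with the knockout effect in each cell type and their difference as contrasts. Benjamini-Hochberg adjustment covered 45037 probe sets, without 64 controls. No exact permutation of 2 arrays against 2 gives a p under 0.333. The fit was tested on simulated data. Genes come from the platform annotation, which gave 34946 probe sets 1 gene, 932 several and 9159 none. One gene is named only through the study's list. The main fit did not pair arrays by replicate number.

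Classes and lists were chosen with earlier results of these data known. Named genes were, per class, those with the largest effects among probe sets of 1 gene with a group mean of at least 100, plus up to 2 per list with a called difference, Ube2b and Ube2a. Other genes, named where a count was small, were chosen after their values were seen. The 18 function and 8 marker lists were described by counts and medians, without a set test. Alternatives covered normalization, a signal filter, the replicate block, the variance prior, the threshold, 1 probe set per gene and leaving out each array. Quantile normalization and separate fits were added after seeing the data. The number of arrays limits the precision.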

Additional observations from a re-analysis of the deposited data

Results flagged for a closer look

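For 69 named genes the limma test of the difference itself separated the knockout effects of the cell types, and each value here is that difference on the log2 scale, spermatids minus spermatocytes. Among the genes with opposite effects the differences were Rbmy1a1 (2.83), Atp6v0b (1.92), 4930433N12Rik (1.92), Gatad2a (1.49), Trap1a (1.41), Nbeal1 (-0.99), Erich3 (-0.99), Kcnu1 (-1.1), Stpg1 (-1.21), Phf6 (-1.4) and Plcb4 (-1.5). Among those that responded in spermatids only, the positive differences were Pcdh17 (2.63), Aard (2.41), Nptx2 (2.23), Vgll2 (2.09), Bmp7 (2.03), Sptlc3 (2.01), St3gal6 (1.92), Defb19 (1.86), Uchl1 (1.7), Hspd1 (1.55), Prps2 (1.53), C1qb (1.32), Med12 (1.15), Hspe1 (1.05), Tnfrsf10b (1), Adgre1 (0.86), Vwf (0.85) and Casp9 (0.81). In the same class the negative differences were Ndufs1 (-0.68), Ube2h (-0.72), Prpf38a (-0.75), Prpf8 (-0.81), Ubr2 (-0.86), Ube3a (-0.88), Bub1b (-0.97), Rfx4 (-1.06), Cdc6 (-1.08), Gmds (-1.53), P4ha2 (-1.56), Tmtc2 (-1.68), Kansl1l (-1.97), Parp8 (-1.98) and Gsdmc2 (-2.73). Among those that responded in spermatocytes only, the positive differences were Tmcc2 (2.07), Hhex (1.51), Zfyve9 (1.3), Mnd1 (0.96), Fmr1 (0.89), Uba1y (0.83) and Gnao1 (0.77). Their negative counterparts were Hyal5 (-0.96), Spag6 (-1.34), Oaz3 (-1.37), Tsga8 (-1.38), Akap4 (-1.41), Iqcf3 (-1.54), Hmgb4 (-1.64), Prm1 (-1.72), Prm2 (-1.9) and Tnp1 (-1.99). Genes that moved in the same direction by different amounts had Fcmr (1.5), Dscaml1 (1.31), Rhou (0.87), Cabs1 (-1.27), Zcchc13 (-1.31), Lrp11 (-1.46) and Neo1 (-2.13). Spam1, which met no class because its spermatid effect was not called and not bounded, had -1.88. Of these 69 genes, 38 had other probe sets, of which another was called in the same direction for 14 and in the other direction for 0. No group held enough arrays for a search for single outlying samples.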

How the results depend on the processing

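The balance of directions depended on the scaling. Of the called differences 31.7% were positive and 68.3% negative, against 47.9% and 52.1% of 1197 with cyclic loess, 84.2% and 15.8% of 4074 with equal medians, 50.6% and 49.4% (795 and 777) of 1572 with quantile normalization, and 18.2% and 81.8% of 2593 (472 and 2121) with a filter on signal. Cyclic loess gave 573 positive and 624 negative probe sets, 1030 in spermatids only, 79 in spermatocytes only and 6 X-linked negative. Equal medians gave 3432 and 642, with 13130 called in spermatids, 28 opposite, 3502 in spermatids only and 172 X-linked positive. The filter gave 30 opposite and 24 X-linked positive probe sets, 1 probe set per gene 23 opposite, and quantile normalization 7 opposite and 93 in spermatocytes only. The trended robust prior gave 3325 called (2524 negative), 2660 in spermatids only and 306 in spermatocytes only. At an adjusted p under 0.01 there were 218 (85 positive, 133 negative), with 254 called in spermatocytes, 2701 in spermatids, 3 opposite, 199 in spermatids only, 14 in spermatocytes only, 48 the same, and 8 X-linked positive and 1 negative. With each cell type fitted alone 80 were called in spermatocytes, 2 opposite, 31 in spermatocytes only and 17 the same. The replicate block gave 1725 called, moved the opposite class to 9, and ended the call for 5 of 69 named genes. The deviations of equally numbered arrays correlated at -0.13 to 0.138 over 6 group pairs, which cannot show whether such arrays shared a preparation. Leaving out 1 array gave 228 to 2197 called (100 to 674 positive, 128 to 1523 negative), 119 to 999 in spermatocytes, 2588 to 7268 in spermatids, 3 to 43 opposite, 198 to 1440 in spermatids only, 12 to 463 in spermatocytes only, 39 to 168 the same, and 8 to 46 X-linked positive and 2 to 22 negative. Such fits have fewer samples, and the cause of the other shifts was not tested. Of the 69 named genes 17 lost the call with cyclic loess, 9 with equal medians, and 9 to 42 without 1 array, the most without replicate 1 of the knockout spermatocytes, and no difference among them changed sign.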

Other observations

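Several further gene groups had few or no called differences. Among 42 proteasome subunits, 31 cytosolic ribosomal protein genes and 22 genes of cholesterol synthesis the difference was called for 0 by limma, against 7, 5 and 11 at an unadjusted p under 0.05, with medians of -0.15, 0.12 and 0.04, which became 0.08, 0.33 and 0.15 with cyclic loess and 0.11, 0.37 and 0.29 with equal medians. With these scalings 1, 2 and 0, and 2, 5 and 4 of them were called, in each case as positive. Ndufs1 of complex I (effects 0.09 and -0.59) was the 1 called among 49 genes of the mitochondrial respiratory chain, Ube2h (0.09 and -0.63) the 1 among 26 other ubiquitin-conjugating enzymes, and the transcription factor Rfx4 (0.20 and -0.86) the 1 among 21 genes of the CREM network and spermiogenic regulation. Of 12 late spermatocyte markers Spag6 (1.15 and -0.19) was called, which had a mean signal of 88.1 in wild type spermatocytes and 5777 in wild type spermatids and so goes against this label, of 15 peritubular and endothelial markers Vwf (-0.17 and 0.68), and of 9 Leydig cell markers 0, against 3 positive ones at an unadjusted p under 0.05. With cyclic loess the differences of Ndufs1, Ube2h, Spag6 and Rfx4 were no longer called, and with equal medians those of Ndufs1, Ube2h and Spag6, while other genes of some of these lists were then called as positive.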
